A study of Mus musculus with 6 samples.

Results

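The genes described here are 45 of the 21456 genes measured by RNA-seq in white adipose tissues (WATs) of mice. They encode proteins of the skeletal muscle sarcomere, of muscle calcium handling and of muscle energy supply, in fast and slow isoforms. They were given as a list of names drawn up with earlier results of these data in view, and all 45 were found in the table. The values that led to their choice are therefore given as a description, with no test of the list.

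The study asked what the loss of neurotensin receptor 2 (Ntsr2) in adipocytes changes in WATs. The 3 control mice were Ntsr2 flox/flox mice, in which loxP sites lie ahead of the first and behind the last exon of Ntsr2. The 3 Ntsr2 AKO mice carried the same floxed alleles and Adipoq-cre, a Cre recombinase under an adipocyte promoter, so that recombination is directed to adipocytes and not to the other cells of the tissue. The labels numbered the mice of each genotype 3, 4 and 5, and the mice are named here by genotype and number, with AKO for the knockout. All 6 mice ate a chow diet according to the methods, and each was 1 library. The sources used here did not give their depot, age or sex.

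Skeletal muscle contracts when myosin thick filaments pull on actin thin filaments within the sarcomere, a unit bounded by Z discs. Calcium released from the sarcoplasmic reticulum binds troponin and frees the thin filament for myosin, and an ATP-driven pump returns it. Fast glycolytic fibres and slow oxidative fibres build this machine from different genes, so that the isoforms in a sample tell which kind of fibre their transcripts are typical of. White fat holds no sarcomeres of its own, although some of these genes have other users, such as Tpm1 and Tpm3 in the cytoskeleton of many cells and Des in smooth muscle.

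Between 60405373 and 66098226 reads were recovered for the control mice and between 54085088 and 56268725 for the Ntsr2 AKO mice. The values below are the deposited normalized counts, in which 1 read was worth 0.920 to 1.04, unless a level per kb of exon is named. Ntsr2 itself had normalized counts of 83.8, 64.0 and 152.5 in control 3, 4 and 5, and of 3.10, 8.29 and 0 in AKO 3, 4 and 5, in step with the labels. The log2 difference of Ntsr2 was -4.81 (SE 0.91, adjusted p = 0.499 in limma, 0.569 in edgeR and 1.1e-04 in DESeq2). White adipocyte markers summed to 2306079 to 3237149 among the controls and 2607405 to 2877858 among the knockouts, with control 5 and AKO 5 lowest in their groups. AKO 4 was the highest knockout. Fat transcripts were thus abundant in every mouse. Control 5 stood apart from the other 5 mice in the muscle genes, and results that rest on it are given with and without it.

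The myosin heavy chains carry the fast and slow distinction most directly, and the stretches ahead of their start sites are shown for that reason. Myh4 encodes the heavy chain of type IIb fibres, Myh1 that of IIx, Myh2 that of IIa and Myh7 that of slow fibres. The first 3 lie side by side on the plus strand of chromosome 11, and Myh7 lies on the minus strand of chromosome 14 (GRCm38.p6). Sequences are RefSeq promoter entries, read 5′ to 3′ up to the listed start, at chr11:67237562-67237811 for Myh4, chr11:67199852-67200051 for Myh1, chr11:67170777-67171026 for Myh2 and chr14:54994627-54994876 for Myh7. For Myh1 the last 50 bases are left out, since the GENCODE gene already begins there. Capitals mark E-boxes (CANNTG, the motif of the MyoD family) and MEF2 boxes, both searched on both strands, and no E-box overlapped a MEF2 box here.
Myh4: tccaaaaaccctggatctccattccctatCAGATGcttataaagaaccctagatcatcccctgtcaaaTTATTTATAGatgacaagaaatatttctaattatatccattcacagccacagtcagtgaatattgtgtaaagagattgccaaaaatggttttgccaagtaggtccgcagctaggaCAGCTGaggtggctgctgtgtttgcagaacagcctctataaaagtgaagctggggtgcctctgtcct
Myh1: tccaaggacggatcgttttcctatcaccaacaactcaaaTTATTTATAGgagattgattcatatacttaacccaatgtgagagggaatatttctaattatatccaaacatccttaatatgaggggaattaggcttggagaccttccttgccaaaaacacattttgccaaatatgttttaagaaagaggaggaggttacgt
Myh2: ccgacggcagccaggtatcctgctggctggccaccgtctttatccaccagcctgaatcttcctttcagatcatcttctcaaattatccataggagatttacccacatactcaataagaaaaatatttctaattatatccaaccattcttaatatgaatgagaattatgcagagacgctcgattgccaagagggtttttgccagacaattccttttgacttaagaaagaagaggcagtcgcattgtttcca
Myh7: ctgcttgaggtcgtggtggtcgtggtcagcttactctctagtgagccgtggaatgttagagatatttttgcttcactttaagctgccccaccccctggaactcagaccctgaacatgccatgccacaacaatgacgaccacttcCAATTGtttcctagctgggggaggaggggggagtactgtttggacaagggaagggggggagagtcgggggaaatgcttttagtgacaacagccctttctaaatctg

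The windows of Myh4 and Myh1 each held 1 MEF2 box, ending 172 and 201 bases ahead of the RefSeq start. Myh4 also held 2 E-boxes and Myh7 held 1, while neither motif was in the window of Myh2. The RefSeq table used here held an entry for 37 of the 45 genes. In the 250 bases ahead of the start, a MEF2 box was present in 8 of the 37 (21.6%, against 3.01% of all 27025 promoters), namely Myh1, Myh4, Casq2, Myoz2, Pgam2, Pvalb, Ttn and Xirp2. An E-box was present in 32 (86.5%, against 66.0%) and TATAAA in 5 (13.5%, against 13.0%). These matches describe letters and say nothing of binding.

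The 45 genes together had summed normalized counts of 22252, 20883 and 4453009 in control 3, 4 and 5, and of 19162, 160985 and 336018 in AKO 3, 4 and 5. They took 7.02% of the reads of control 5 (95% exact binomial interval 7.017 to 7.029), 0.590% of AKO 5 and 0.287% of AKO 4, but 0.0335% to 0.0399% of control 3, control 4 and AKO 3. The means were 1498715 ± 2558494 for the controls and 172055 ± 158718 for the knockouts (SD, n = 3 each), so the SD was above the mean in the control group and close to it in the AKO group. The log2 ratio of the means, AKO over control, was -3.12, and 3.0 without control 5. In whole tissue, more cells of a type and more RNA per cell cannot be told apart. These intervals cover counting error only.

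**Figure D1:**
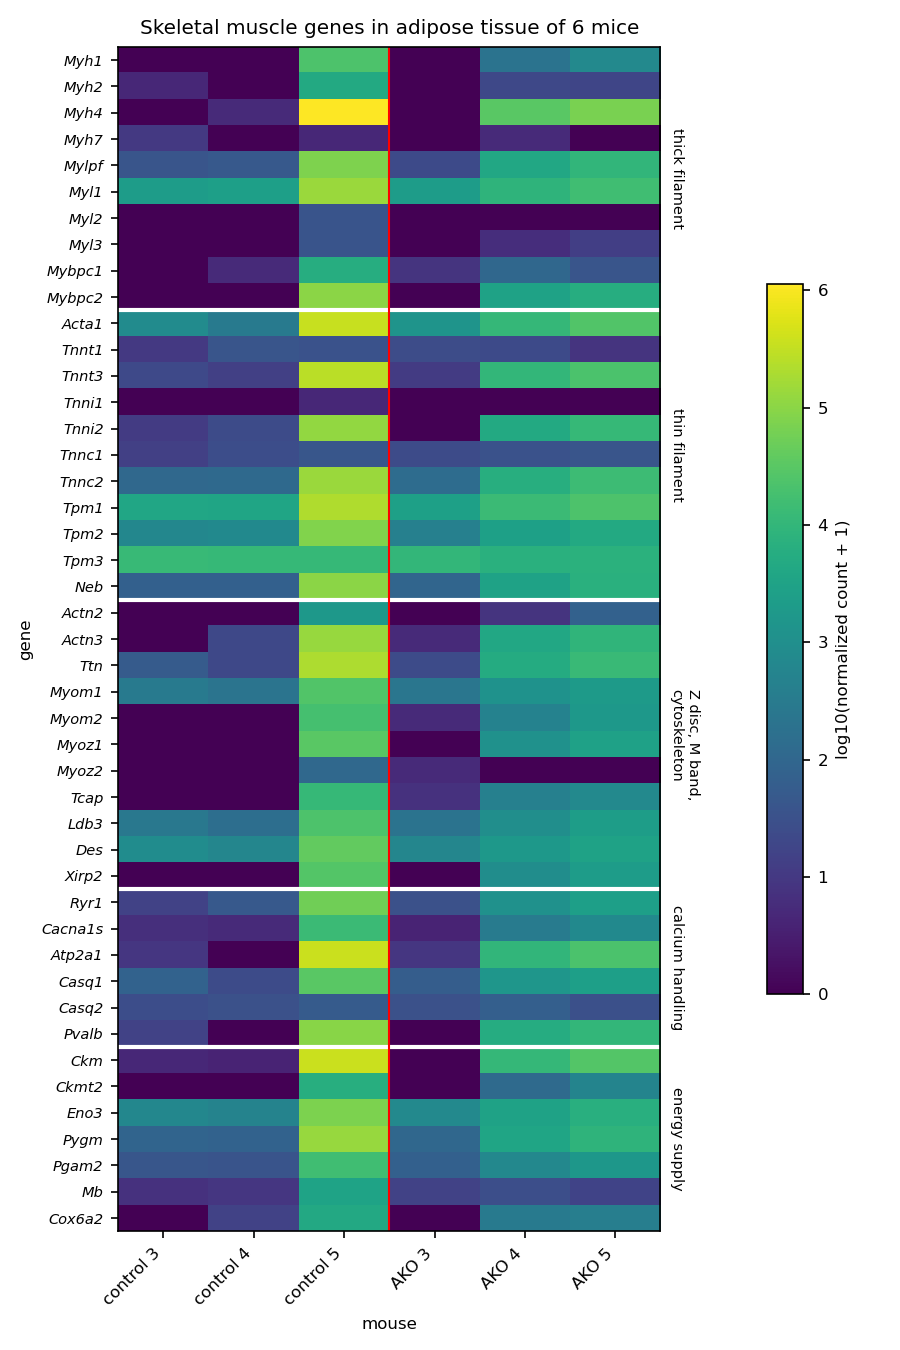
Normalized count of each of the 45 genes (rows, grouped by role) in each of the 6 mice (columns; the red line parts control from Ntsr2 AKO mice), coloured as log10(normalized count + 1). Control 5 is brightest for 41 of the 45 genes, AKO 5 and AKO 4 follow for most, and the other 3 mice are dark except for genes such as Tpm3 and Myl1.

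The mice fell into the same order in most of these genes. Control 5 was the highest mouse for 41 of the 45, and 35 of the 45 ran control 5, then AKO 5, then AKO 4, then the other 3 mice in any order. Of the 41 genes that passed the filter for low values, 34 did so (82.9%), against 2.44% of the 16157 genes tested. This order was read from these same values. The 10 genes outside it were Myh2, Myh7, Myl2, Mybpc1, Tnnt1, Tnni1, Tpm3, Myoz2, Casq2 and Mb. Of the 14 genes that stood for fast fibres in the isoform pairs described below, 13 kept the order, compared with 3 of the 11 that stood for slow fibres and 19 of the 20 in no pair. Those 3 included Actn2, which is found in all fibres and was placed there as the partner of Actn3. Among the slow genes, Myh7, Myl2 and Tnni1 had at most 10, 38 and 4 reads in any mouse. With so few reads the order can go unseen, so the counts for fast and slow genes also depend on abundance. In each of control 3, control 4 and AKO 3, 16 of the 45 genes were listed at 0 (an upper limit of 3 reads), compared with 0 genes in control 5, 3 in AKO 4 and 4 in AKO 5.

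Among the thick filament genes, Myh4 was the most abundant heavy chain per kb in control 5, AKO 4 and AKO 5. Its normalized counts were 0, 4.13 and 1132546 in control 3, 4 and 5 and 0, 32770 and 68385 in AKO 3, 4 and 5. Control 5 was therefore at least 410193-fold above control 3, taken at 3 reads, the widest range from the highest to the lowest mouse among the 45 genes. Myh1 had 0, 0 and 23447 in control mice, against 0, 204 and 725 in the AKO mice. Myh2 had 3.68, 0 and 4768 over control 3 to 5, compared with 0, 19.7 and 17.2 over AKO 3 to 5. Myh7 was almost absent, with 9.20, 0 and 3.84 for the controls and 0, 4.15 and 0 for the knockouts, so control 5 was not its highest mouse.

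Per kb of exon, Myh4 made up 97.7% of the 4 heavy chains in control 5, 99.4% in AKO 4 and 99.0% in AKO 5. The share of Myh1 was 1.92%, 0.586% and 0.993% in the same 3 mice, and that of Myh2 was 0.347%, 0.0503% and 0.0210%. Myh1 and Myh2 therefore made up a larger part of the heavy chains in control 5 than in either AKO mouse. Control 3 and control 4 had only 14 and 4 reads over the 4 genes and AKO 3 had 0, so no share was computed there. Some stretches of these transcripts are identical, with 9.24% of the 100-base words of Myh1, 9.17% of Myh2 3.85% of Myh4 and 10.5% of Myh7 also found in another heavy chain, for Myh7 the cardiac Myh6. How such reads were assigned is not given in the sources used here, so the low levels of Myh1, Myh2 and Myh7, and the ratios that rest on Myh7, are uncertain.

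The light chains stabilise the myosin neck. Mylpf, the fast regulatory chain, had 38.7, 47.5 and 76624 in the control group, and in the AKO group 21.7, 4264 and 9735. Its slow counterpart Myl2 was seen only in control 5, at 36.5, and was listed at 0 in the other 5 mice. The fast alkali light chain Myl1 was the thick filament gene with a clear level in every mouse, at 2195, 2646 and 138414 in control mice, against 2195, 8769 and 16037 in the AKO mice. Its slow counterpart Myl3 had 36.5 in control 5, 5.18 in AKO 4 and 12.1 in AKO 5 and was at 0 in the other 3 mice.

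Myosin binding protein C ties the thick filament to its neighbours. The fast form Mybpc2 had 0, 0 and 100145 over control 3 to 5, compared with 0, 3083 and 5925 over AKO 3 to 5. The slow form Mybpc1 had 0, 4.13 and 5868 for the controls and 7.23, 104 and 39.5 for the knockouts. Mybpc1 was thus higher in AKO 4 than in AKO 5, whereas Mybpc2 was lower.

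The thin filament genes include actin, the troponins and the tropomyosins. Acta1, skeletal alpha-actin, had the highest level per kb of the 45 as a mean over the 6 mice, which control 5 dominates, at 43259, ahead of Myh4 (34178), Tnnc2 (32655), Tnnt3 (31728) and Ckm (23069). Its normalized counts were 821, 303 and 360345 in the control group, and in the AKO group 1393, 10641 and 25173. Unlike Myh4, Acta1 was thus well above 0 in control 3, control 4 and AKO 3.

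The fast troponins followed the common order of mice. Tnnt3, the fast troponin T, had 20.2, 13.4 and 268672 in control mice, against 10.3, 10336 and 22303 in the AKO mice. Tnni2, the fast inhibitory troponin, had 10.1, 23.7 and 116334 over control 3 to 5, compared with 0, 4842 and 11424 over AKO 3 to 5. Tnnc2, the fast calcium sensor, had 109, 119 and 135724 for the controls and 137, 6209 and 14446 for the knockouts. In all 3, AKO 4 and AKO 5 lay between control 5 and the rest.

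The slow troponins did not share that range. Tnnt1 had 9.20, 39.2 and 31.7 in the control group, and in the AKO group 24.8, 21.8 and 7.08. Tnnc1, which slow fibres share with the heart, had 12.9, 25.8 and 41.2 in control mice, against 22.7, 33.2 and 39.5 in the AKO mice. Tnni1 was seen only in control 5, at 3.84, which was 4 reads. Tnnt1 was highest in control 4 and Tnnc1 in control 5, and neither spread over the mice as the fast troponins did.

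Tropomyosin lies along actin and gates access to it. Tpm1 had 3751, 3616 and 216530 over control 3 to 5, compared with 2793, 13077 and 23078 over AKO 3 to 5, and Tpm2 had 621, 726 and 80023 against 429, 2771 and 4713. Tpm3, the slow form, was nearly flat, at 12171, 11494 and 11585 for the controls and 9937, 6985 and 7524 for the knockouts. All 3 knockouts lay under all 3 controls in Tpm3, the 1 gene of the 45 whose groups did not overlap. Over all genes tested, 15.0% did not overlap, 8.16% with the AKO group lower and 6.82% with it higher. Gene counts do not separate the muscle and cytoskeletal forms of Tpm1 and Tpm3. Nebulin (Neb), which spans the thin filament, had 100599 in control 5, 3055 in AKO 4 and 6820 in AKO 5, and 70.2 to 91.9 in the other 3 mice.

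At the Z disc, Actn3, the alpha-actinin of fast fibres, had 0, 19.6 and 134285 in the control group, and in the AKO group 4.13, 4249 and 8988. Actn2, found in all fibres, had 0, 0 and 1731 in control mice, against 0, 7.26 and 72.9 in the AKO mice. Actn2 of AKO 5 was at 1004% of AKO 4, the largest such step among the 32 genes compared below. Myoz1, the fast calsarcin, had 0, 0 and 31924 over control 3 to 5, compared with 0, 1126 and 2945 over AKO 3 to 5. Myoz2, the slow one, had 112 in control 5 and 4.13 in AKO 3 and was listed at 0 in the other 4 mice.

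The remaining structural genes fell into those at or near 0 in control 3, control 4 and AKO 3 and those with a clear level there. Tcap, which caps titin, had 0, 0 and 11305 for the controls and 6.19, 441 and 710 for the knockouts. Myom2, of the M band, had 0, 0 and 18551 in the control group, and in the AKO group 4.13, 480 and 1719. Titin (Ttn) reached 206977 in control 5, with 5252 in AKO 4 and 12547 in AKO 5, and Xirp2 reached 27492 in control 5, with 927 in AKO 4 and 2222 in AKO 5. In control 3, control 4 and AKO 3, Ttn lay between 19.6 and 53.4 and Xirp2 at 0. Ldb3, which links Z disc proteins, Des and Myom1 were present in every mouse. Ldb3 had 270, 154 and 23197 in control mice, against 204, 1000.2 and 2383 in the AKO mice. Desmin (Des), the muscle intermediate filament, and Myom1 also kept a level in control 3, control 4 and AKO 3, Des at 585 to 884 and Myom1 at 211 to 287, and both peaked in control 5, at 40798 and 25440.

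In the calcium handling genes, Atp2a1, the fast fibre calcium pump, had 8.28, 0 and 362574 over control 3 to 5, compared with 8.26, 9796 and 21580 over AKO 3 to 5. Casq1, the fast calcium store, had 81.0, 23.7 and 31448 for the controls and 58.8, 1501 and 2683 for the knockouts. Casq2, the slow and cardiac store, had 25.8, 29.9 and 52.8 in the control group, and in the AKO group 31.0, 66.3 and 29.3. Casq2 thus had a highest to lowest ratio of 2.57 and, unlike Casq1, peaked in AKO 4. The release channel Ryr1, its voltage sensor Cacna1s and the fast fibre calcium buffer Pvalb reached 54765, 13626 and 97337 in control 5. They stayed at or below 47.5 in control 3, control 4 and AKO 3.

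In energy supply, Ckm, the cytosolic creatine kinase, had 3.68, 3.09 and 364935 in control mice, against 0, 11037 and 27228 in the AKO mice. Eno3, the muscle enolase, had 625, 514 and 72930 over control 3 to 5, compared with 692, 3042 and 6657 over AKO 3 to 5. The glycolytic genes Pygm and Pgam2 and the mitochondrial genes Ckmt2 and Cox6a2 reached 132044, 15560, 6368 and 4480 in control 5 and kept the common order. Myoglobin (Mb), the oxygen store of oxidative fibres, did not. It had 6.44, 8.25 and 3301 for the controls and 14.5, 26.9 and 15.2 for the knockouts, so that AKO 5 lay beside AKO 3.

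**Figure D2:**
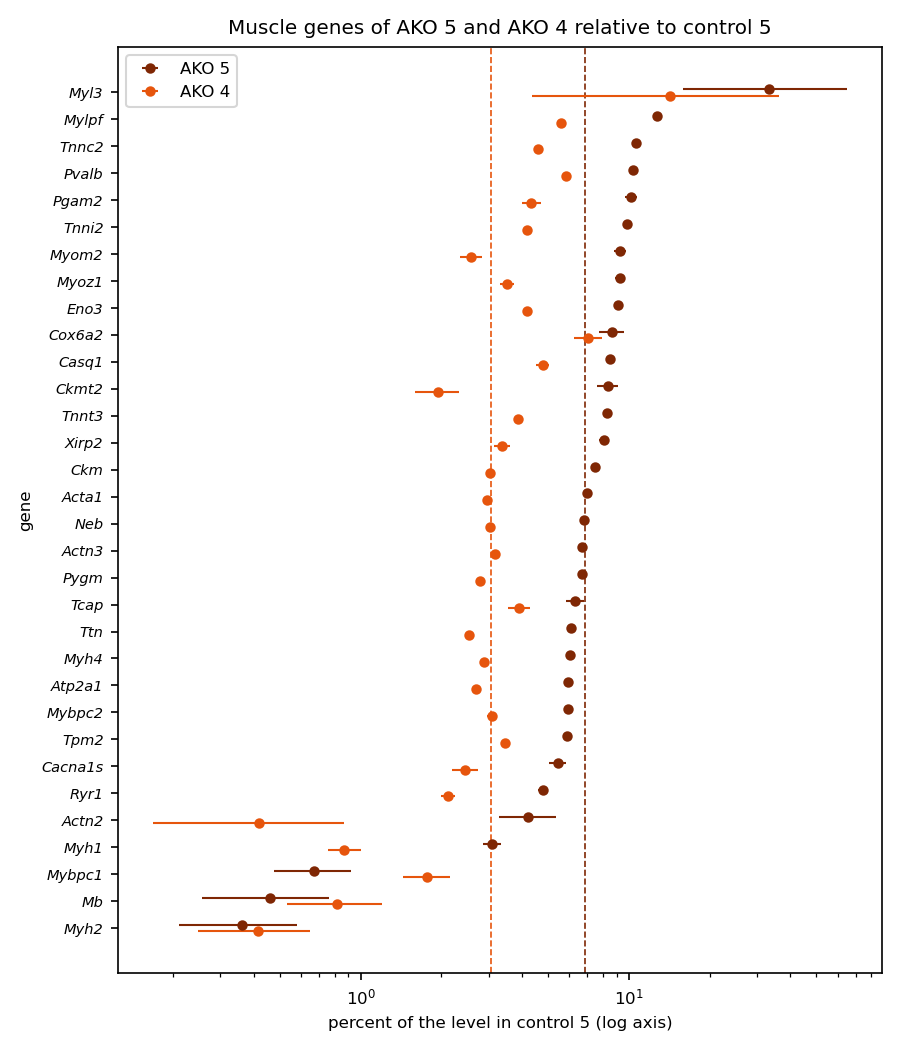
Level in AKO 5 and AKO 4 as a percent of control 5 (log axis) for the 32 genes with under 1% of the control 5 level in control 3, control 4 and AKO 3; bars are 95% counting intervals and dashed lines the medians, 6.88% and 3.06%. Most genes sit near the medians, while Myh2, Mb, Mybpc1, Myh1 and Actn2 lie below and Myl3 above.

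How closely the genes kept step was measured against control 5. In 34 of the 45 genes, control 3, control 4 and AKO 3 were each under 1% of control 5, and 32 of these 34 had reads in AKO 4 and AKO 5. AKO 5 had a median of 6.88% of the control 5 level over those 32 (quartiles 5.91% and 9.15%), and AKO 4 had 3.06% (quartiles 2.52% and 4.16%). The largest genes sat near these medians, with Myh4 at 6.04% and 2.89%, Ckm at 7.46% and 3.02%, and Acta1 at 6.99% and 2.95%. Far below lay Myh2 at 0.361% (95% counting interval 0.210 to 0.578) in AKO 5 and 0.413% (0.248 to 0.646) in AKO 4. Mb was at 0.460% and 0.816%, Mybpc1 at 0.673% and 1.77%, and Myh1 at 3.09% and 0.871%. Myl3 was highest at 33.3% and 14.2%, from 12 and 5 reads. The counting intervals of Myh2, Mb, Mybpc1, Myh1, Actn2 and Ryr1 did not reach the lower quartile in either mouse, but each mouse is 1 library. The quartile was taken from these same 32 genes, so some of them lie below it by construction.

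The log2 ratio of each gene to the sum of the 45 varied least over the 6 mice for Eno3 (SD 0.42), Ldb3 (0.47) and Tpm2 (0.49). It varied most for Myh4 (6.28), Ckm (5.10) and Mybpc2 (4.75), which fell to 0 or a few reads in control 3, control 4 and AKO 3, where Tpm3 alone made up 54.7%, 55.04% and 51.9% of the sum. Outside the 45, the closest to the sum among 13598 genes with a mean of at least 50 was Camk2a, a calcium and calmodulin dependent kinase, with an SD of 0.20. It had 32.2, 39.2 and 7086 in the control group, and in the AKO group 23.7, 268 and 599. Next came Sim2, Trim72, Lrrc2, Asb2, Tmem38a, Slc38a4, Srl, Ppp1r14c and Rbm24, with SDs of 0.36 to 0.49. These measures rest on 6 mice, 3 of which had little muscle RNA.

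By role, the thick filament made up 33.3% of the summed counts of the 45 genes in control 5, 30.6% in AKO 4 and 30.02% in AKO 5. The thin filament made up 29.0%, 36.0% and 34.4% in the same mice, calcium handling 12.6%, 11.5% and 11.2%, and energy supply 13.5%, 11.7% and 13.5%. In control 3, control 4 and AKO 3 the thin filament took 79.1%, 78.7% and 77.4%, most of it Tpm3.

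**Figure D3:**
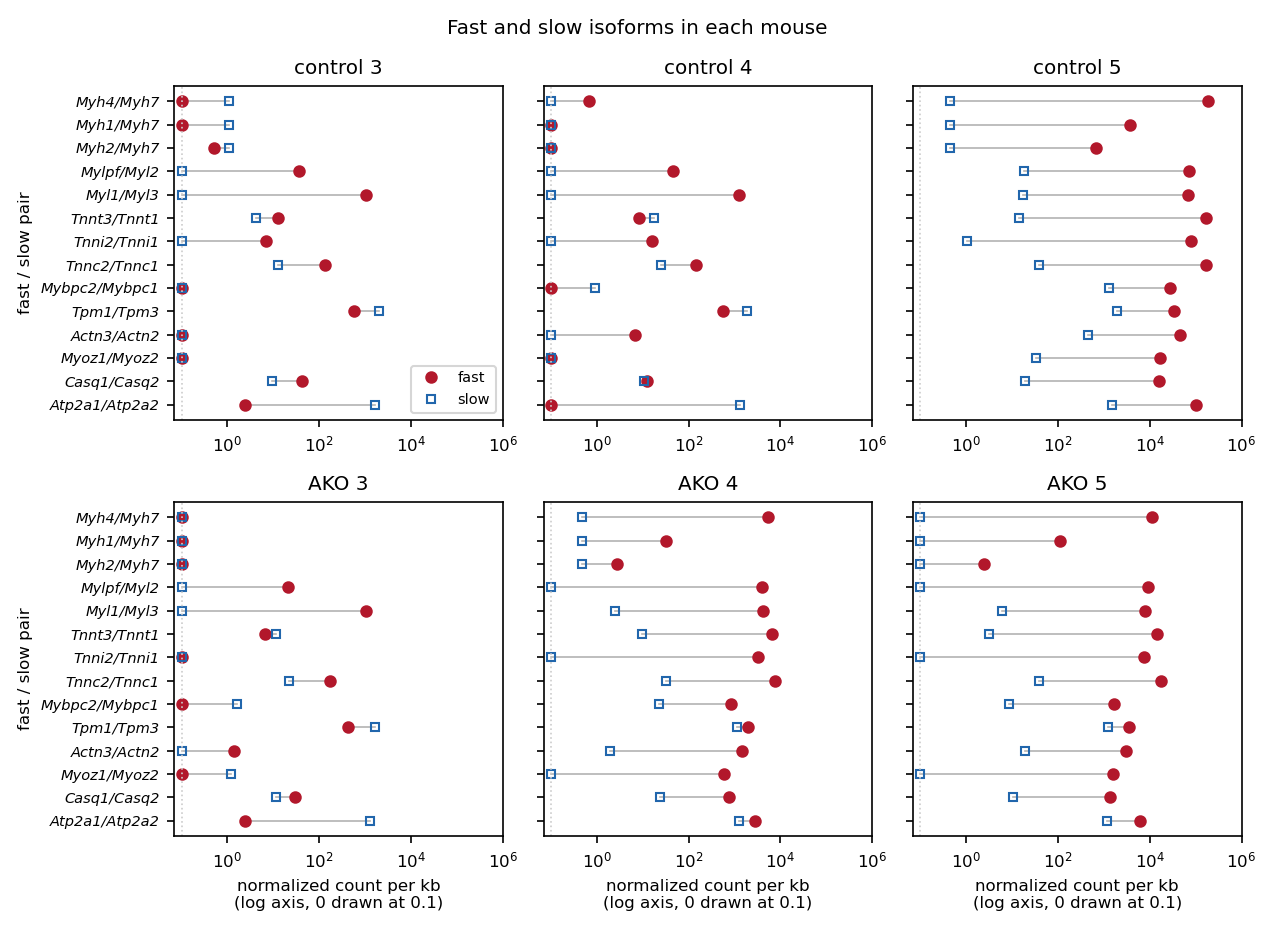
Normalized count per kb of exon (log axis; 0 is drawn at 0.1) of the fast (red) and slow (blue) gene of 14 isoform pairs in each mouse. In control 5, AKO 4 and AKO 5 every red point lies to the right of its blue partner, and in the other 3 mice the order differs between pairs. Actn2, drawn as slow, is found in all fibres.

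Fast and slow isoforms were compared as ratios of levels per kb in 14 pairs. In control 5, AKO 4 and AKO 5 the fast gene was above the slow one in all 14. The Myh4 to Myh7 ratio was 422714 in control 5 (95% counting interval 165097 to 1551438, on 4 reads of Myh7), 11320 in AKO 4 and at least 32258 in AKO 5. The Tnnt3 to Tnnt1 ratio was 3.06, 0.476 and 11817 in control mice, against 0.580, 661 and 4383 in the AKO mice. In both pairs the slow gene was low in every mouse.

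The ratio followed another course where the partner of the fast gene was also rich in control 5. Mybpc2 over Mybpc1 was 21.4 in control 5, 37.3 in AKO 4 and 188 in AKO 5, and Actn3 over Actn2 was 102, 766 and 161. Actn2 is found in all fibres, so Actn3 over Actn2 is not strictly a fast to slow ratio. Control 5, with the most muscle RNA, therefore had the lowest of these ratios. By contrast, Casq1 over Casq2 was 836, 31.7 and 128 and Tnnc2 over Tnnc1 was 4282, 244 and 476 in the same mice.

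In the remaining pairs shown, the slow gene had a high level in every mouse. Atp2a2, the calcium pump of slow fibres and of non-muscle cells and no member of the 45, had 7067 to 9805 in all 6 mice. Atp2a1 over Atp2a2 was 68.5 in control 5, 2.29 in AKO 4 and 5.34 in AKO 5, and at most 0.00185 in the other 3 mice. Tpm1 over Tpm3 was 0.289, 0.295 and 17.5 over control 3 to 5, compared with 0.264, 1.76 and 2.88 over AKO 3 to 5.

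No fast to slow ratio separated the genotypes. The groups overlapped in all 14 pairs, and the lowest two-sided p in an exact permutation test of the log2 ratios was 0.2, for Myl1 over Myl3, with every adjusted p at 1.0 over the 14. With 3 mice against 3 such a test cannot go below 0.10.

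The genotype comparison left no gene of the 45 past an adjusted p of 0.05. The main test was limma on log2(normalized count + 1), with fold changes on that scale, and 41 of the 45 had a mean of at least 10 and were tested (Myh7, Myl2, Myl3 and Tnni1 were not). Of all 16157 genes tested, limma called 0.00619%, which was 1 gene, Egr1 (log2 difference -2.30, SE 0.16, adjusted p = 0.0442), named because it was the only call. edgeR called 0 genes and DESeq2 called 220 (1.36%; 0.953% lower and 0.408% higher in the AKO group), and neither called any of the 45. At an unadjusted p under 0.05, limma had 1 of the 41 (8.35% of all genes), edgeR had 2 (8.19%) and DESeq2 had 1 (10.4%). DESeq2 gave no p for 29 of the 41, by its Cook's distance rule for counts far from the rest of a group, and an adjusted p for 11.

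Tpm3 had the smallest p in limma, with a log2 difference of -0.54 (SE 0.15, unadjusted p = 0.00987, adjusted p = 0.522; 0.127 to 0.974 over all alternatives), lower in 3 of 3 Ntsr2 AKO mice. Next lowest were Mb at -1.67 (SE 2.25, adjusted p = 0.849; 1.20 without control 5) and Myoz2 at -1.49 (SE 2.14, adjusted p = 0.861). The smallest p among positive differences belonged to Tcap at 2.55 (SE 3.81), Myom2 at 2.61 (SE 4.12) and Tnnc1 at 0.35 (SE 0.57), with limma adjusted p of 0.870, 0.877 and 0.879. Without control 5, Tcap was at 7.04 and Myom2 at 7.34, and without control 3 or control 4 they were at 0.30 and 0.25. None of these last 5 differed by more than the spread between mice.

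The direction of the median depended on how the mice were averaged. The median limma difference of the 41 was 0.55, with 28 above and 13 below 0, against -0.01 over all genes. It was -3.10 in edgeR and -3.11 in DESeq2, which model mean counts and not mean logs, with 39 below and 2 above 0 in each. On the plain scale the Ntsr2 AKO mean was below the control mean in 43 of the 45, with Tnnc1 and Casq2 the exceptions. Without control 5, 39 genes were tested, the median was 4.12 and 37 were above 0. This fit is given because these same values set control 5 apart. Control 3 and control 4, which remain, were low in most of the genes. Positive differences and more small p values therefore follow in part from the choice. At an unadjusted p under 0.05 limma had 7 of the 39 in this fit, against 6.56% of all genes. They were Tcap, Acta1, Myom2, Mybpc1, Pgam2 and Atp2a1 with positive differences and Tpm3 with a negative one. The lowest limma adjusted p among them was 0.734.

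**Figure D4:**
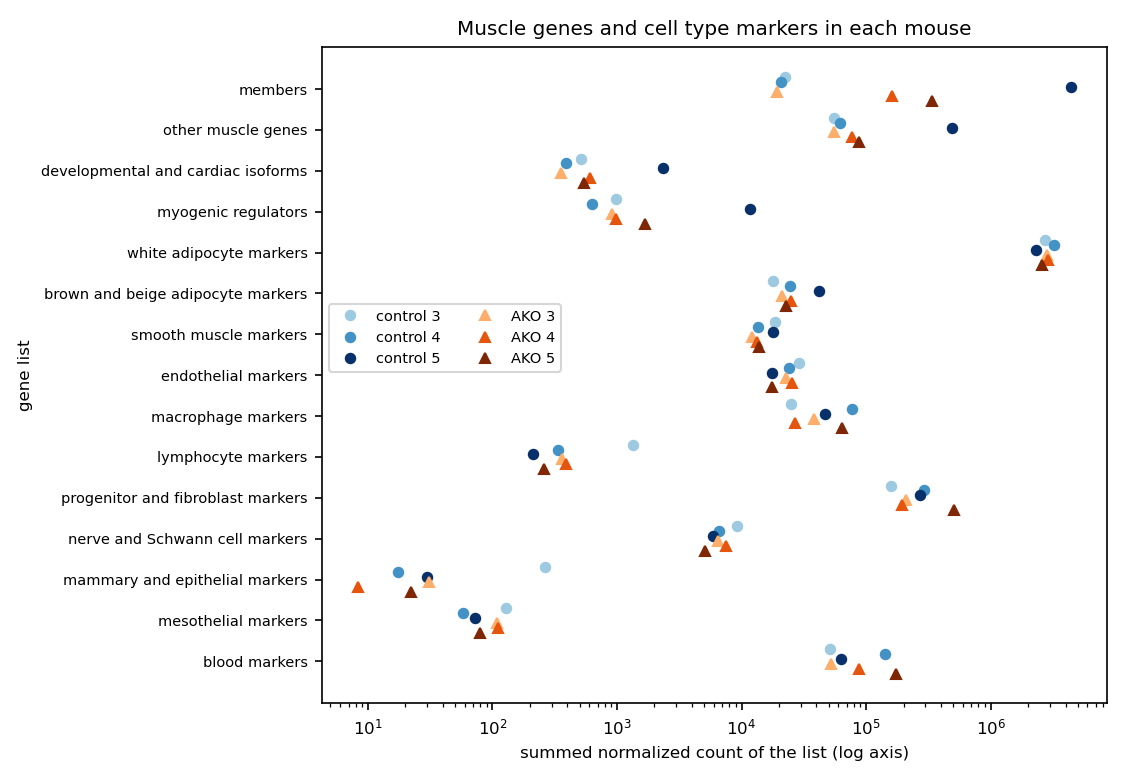
Summed normalized count (log axis) of the 45 genes (members), of other muscle genes and of cell type marker lists in each mouse; circles are control and triangles Ntsr2 AKO mice. The 45 genes span 19162 to 4453009, while white adipocyte markers stay between 2306079 and 3237149.

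Other muscle genes, a list of 58 of which 56 were in the table, were highest in control 5 as well. They summed to 55144, 62322 and 487805 in control 3, 4 and 5, and to 55365, 76598 and 88227 in AKO 3, 4 and 5. Of the 56, 39 kept the order control 5, AKO 5, AKO 4 and the rest, and 0 of the 55 tested were called by limma, with 1 at an unadjusted p under 0.05. In 28 of the 56, control 3, control 4 and AKO 3 were under 1% of control 5, and 26 of these had reads in AKO 5 and 26 in AKO 4. AKO 5 was at a median of 6.77% and AKO 4 at 2.79% of control 5, beside 6.88% and 3.06% for the genes described above. The filters differed: here any value above 0 was kept in each mouse, while the genes above needed more than 3 reads. The sarcomere and Z disc genes outside the order were Flnc, Lmod2, Csrp3, Ankrd2, Myom3 and Unc45b. Flnc had 930, 2961 and 14708 for the controls and 825, 565 and 1777 for the knockouts.

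None of the marker lists of other cell types, when summed, put the mice in the order of the muscle genes. Smooth muscle markers summed to 13460 to 18455 in control and 12110 to 13751 in Ntsr2 AKO mice, and progenitor and fibroblast markers to 159391 to 291849 and 196213 to 506743. Endothelial markers summed to 17674 to 29179 and 17686 to 25445, with control 5 and AKO 5 lowest in their groups, and nerve and Schwann cell markers to 5923 to 9189 and 5063 to 7571, with the same 2 mice lowest. In both lists AKO 4 was the highest knockout. Each of these lists thus spread less over the mice than the 45 genes did. Macrophage markers summed to 25181 to 77344 and 26888 to 63959, lymphocyte markers to 211 to 1351 and 257 to 391, and blood markers to 51611 to 143074 and 52601 to 173810. Mammary and epithelial markers summed to at most 266 and mesothelial markers to at most 129 in any mouse. Brown and beige markers, a list that shares Cox7a1, Cox8b and Fabp3 with the other muscle genes, summed to 41909 in control 5 and 17751 to 25047 in the rest. Most of the sum in control 5 was Pdk4, at 32093 there and 10604 to 16348 in the rest. Ucp1 was at 18.2 in control 5 and 0 to 55.7 in the rest. None of these lists had a gene past the adjusted threshold of limma. Their part in the muscle result was not tested.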

How the data were processed

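Total RNA of adipose tissue from 3 control and 3 Ntsr2 AKO mice was extracted with TRIzol and sequenced after NEBNext library preparation, per the labels. The study's methods state that mRNA was first selected from it with poly-T beads. According to the submitters' processing notes and the study's methods, reads were trimmed with Trimmomatic, aligned to mm10 with HISAT2 and counted with StringTie. Versions and the annotation are not given in the sources used here, nor is the use of strand. The deposited table held 1 signal per gene and mouse, normalized counts made by the authors by dividing read counts by a size factor per mouse. Whole reads were recovered from the steps of each column, and 100% of values came out whole within 0.01. No 2 columns were identical. The labels do not say whether a library came from 1 mouse or a pool, so p-values measure only the spread between these 6 libraries, which may in part be technical.

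The 45 genes and all gene lists were chosen with earlier results of these data known, and the marker lists come from general knowledge. Exon lengths and positions came from GENCODE M21 (GRCm38). The 16157 of 21456 genes whose normalized counts averaged 10 or more were tested on log2(value + 1) with limma 3.58.1 (R 4.3.3, mean-variance trend, Benjamini-Hochberg over all genes, two-sided), with genotype as the only term. The recovered reads went into the alternative tests, edgeR 4.0.16 (quasi-likelihood, TMM) and DESeq2 1.42.0. All 3 were tested on simulated counts in which no mouse stood apart, so that test does not cover a mouse such as control 5. Values in every mouse were given for fast and slow pairs, the 5 genes highest per kb, the 3 most and least variable, and the 3 with the smallest p in each direction. Other genes were named from the lists or for likeness to the sum, and further members to account for all 45. Intervals are exact, at 95%, and a count of 0 allows 3 reads. The other alternatives were pseudocounts, filters, quantile normalization, no trend, a replicate block and leaving out each mouse. Promoter sequences are RefSeq entries (GRCm38.p6).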

Additional observations from a re-analysis of the deposited data

How the results depend on the processing

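The count of the 45 genes past the adjusted threshold was 0 in all 15 alternatives, and Tpm3 kept its negative difference in all 15 (-0.70 to -0.43). In DESeq2 only 11 of the 45 had an adjusted p, so the others could not be called there. The count over all genes was 1, and 0 with no filter, without the mean-variance trend, with the replicate block and in edgeR, 220 in DESeq2, and 0 to 0 when leaving out each mouse. Genes of the 45 at an unadjusted p under 0.05 numbered 2 in edgeR and 1 to 7 when leaving out each mouse, the 7 without control 5. The median log2 difference turned from 0.55 to -3.10 in edgeR and -3.11 in DESeq2. Leaving out each mouse gave -1.06 to 4.12, negative without control 3 (-1.04), control 4 (-1.06), AKO 4 (-0.19) or AKO 5 (-0.66). The log2 ratio of the summed means, -3.12, ran from -4.06 to 3.0, positive without control 5. Leaving out each mouse, Mb ran from -3.19 to 1.20 (positive without control 5), Tnnc1 from -0.072 to 0.73 (negative without control 3), Tcap from 0.30 to 7.04 and Myom2 from 0.25 to 7.34. In edgeR and DESeq2, Mb was -5.84 and -5.86, Tcap -3.26 and -3.28, and Myom2 -3.05 and -3.06. Fast to slow ratios without overlap numbered 0, and 0 to 5 when leaving out each mouse, the 5 without AKO 3 and 1 without control 3 or control 5. Scaling by total reads and by TMM left the count of non-overlapping genes at 1 and that in the common order at 34 to 35. Ntsr2 passed the threshold in DESeq2 (-4.72, adjusted p = 1.1e-04). The cause of these shifts was not tested.

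The replicate block made 0 calls, with 1303 genes at an unadjusted p under 0.05 against 1349. Same-numbered mice had deviations correlated at 0.45, -0.24 and 0.41, and mice of unlike number at -0.52 to 0.26. The sources used here name no pairing, so the numbers were not taken as pairs. These correlations do not settle whether they are. The ratio to the sum over the genes near 0 in 3 mice was chosen after seeing the data. Its median SD was 1.75 over those 34 genes. The ratio to the sum of the 45 had a median SD of 2.31 over all 45, so both the sum and the genes differed. Genes under about 3 reads in a mouse were beyond the depth of these libraries, and 3 mice a group with 1 far above the rest limited every genotype test.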

Other observations

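Regulators of muscle formation, apart from Pax3, were highest in control 5. Myf6, the regulator kept on in mature fibres, had 0, 0 and 4054 in the control group, and in the AKO group 0, 65.3 and 211. Myod1 had 450 in control 5, 12.4 in AKO 4 and 28.3 in AKO 5, and Myog had 118, 5.18 and 11.1 there, with both listed at 0 in the other 3 mice. The satellite cell markers Pax7 and Myf5 were seen only in control 5, at 39.3 and 20.1, and were listed at 0 in the other 5 mice. Musk, a receptor of the nerve to muscle junction, reached 749 in control 5. Pax3 was the 1 regulator of the 9 in the table whose groups did not overlap. It was at 0 in all control mice and 5.16, 7.26 and 5.06 in Ntsr2 AKO mice, below the filter for low values. Over all genes tested, 15.0% did not overlap, 6.82% with the AKO group higher. None of the 6 regulators tested was called by limma.

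Developmental and cardiac isoforms were low. Perinatal myosin, Myh8, had 0, 0 and 1920 in control mice, against 0, 30.1 and 90.1 in the AKO mice, in the common order. Embryonic myosin, Myh3, had 12.5 in control 5 and 5.18 in AKO 4, and Myh6 had 2.02 to 13.4 over the 6 mice. Cardiac actin, Actc1, was seen in control 5 (178) and AKO 5 (100.2) and was listed at 0 in AKO 4. Atrial Myl4 and cardiac Tnni3 did not follow the muscle genes, with control 5 the lowest mouse in both (165 and 37.4).

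Measured against the sum of the genes near 0 in control 3, control 4 and AKO 3, a choice made after seeing the data, the closest genes were Klhl40 (SD of the log2 ratio 0.22), Lrrc30 (0.25), Ppp1r27 (0.29) and Cacng6 (0.29). Klhl40 had 1864 in control 5, 46.6 in AKO 4 and 109 in AKO 5, and was listed at 0 in the other 3 mice. Lrrc30, Ppp1r27 and Cacng6 were also at 0 in those 3 mice. A count of 1 was added before each ratio, so it sets part of these SDs and of the ranking. Ankrd2, a stretch-responsive gene of slow fibres, had 1.84, 11.3 and 323 in the control mice and was listed at 0 in all 3 Ntsr2 AKO mice (adjusted p = 0.583 in limma). Its value in control 3 was 2 reads, within the 3 reads that a 0 allows. Groups did not overlap, with the AKO group lower, in 8.16% of all genes tested.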
